A study of Mus musculus with 12 samples.

Results

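The 10 genes described here encode the core of the circadian clock and its closest outputs: the activators Arntl, Clock and Npas2, the repressors Per1, Per2, Per3, Cry1 and Ciart, the nuclear receptor Nr1d1, and the output factor Dbp. They were picked out by symbol, and all 10 were found among the 15910 genes of the deposited table. RNA had been extracted from hepatocytes dissociated from perfused livers of female Balb\c mice, 8 weeks of age at injection, and sequenced from polyA RNA. The mice had been injected orthotopically with cells of the murine breast cancer line 4T1, which comes from this strain, or with PBS, and were taken at day 4 or day 21. That gave 12 libraries, with 3 mice in each of the groups PBS day 4, tumour day 4, PBS day 21 and tumour day 21. The replicates of a library are named as the labels name them. The hour of the day at which each liver was taken is not given in the sources used here, and its part in the values below was not tested.

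In mammals ARNTL, also called BMAL1, pairs with CLOCK or its relative NPAS2, and the pair binds E-boxes to switch on the Per, Cry, Nr1d1, Dbp and Ciart genes. PER and CRY proteins then inhibit the pair, CIART does so too, and NR1D1, also called REV-ERB alpha, silences Arntl, so that each of these transcripts rises and falls once a day. In the liver of a mouse kept in light and dark, Arntl, Npas2 and Clock transcripts are known to peak around the start of the light period. Nr1d1 and then Dbp follow during the light period, Per2 and Per3 peak around the change to darkness, and Cry1 peaks later in the night. Feeding and glucocorticoids are known to set the liver clock.

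Recovered depth ran from 9375095 to 21809166 reads per library. Markers of hepatocytes, 8 genes, made up 10.7% to 17.1% of each library, and none of them was at 0 in any. The 14 markers of neutrophils and their precursors held 0.000161% to 0.00329% of the reads at day 4 and 0.00015% to 0.000204% in PBS mice at day 21. In tumour mice at day 21 they held 0.762%, 0.134% and 0.117% in replicates 7, 8b and 9a. In RNA from a whole preparation, fewer cells of a type and less RNA per cell cannot be told apart. Over all genes tumour day 21 replicate 7 stood apart: its median Pearson r with the rest was 0.888, and for the remaining 11 libraries it was 0.945 to 0.976.

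The DNA sites through which the loop is known to act were looked for next to the genes' start sites, because the members moved with or against each other in the data below. RefSeq windows of GRCm38.p6, 250 bases before to 50 after a start site, were at hand for 9 of the 10 genes, all but Per2. On both strands 4 motifs were searched by their exact letters, and no 2 matches in these genes overlapped: the E-box, spelled CACGTG; its variant, the E-prime box, spelled CACGTT; the D-box that DBP is known to bind, spelled TTATGTAA; and the core of the RORE through which NR1D1 is known to act, spelled TAGGTCA. Of 32851 windows of this length, 7.15% held the E-box, 4.68% the E-prime box, 0.938% the D-box and 2.61% the RORE core. The E-box was in the windows of Ciart, with 3 copies, of Cry1 and of the first of 2 Per1 starts. The E-prime box was in those of Cry1 and Nr1d1, the D-box in that of Per3, with 2 copies, and the RORE core in that of a second Arntl start. The windows of Clock, Npas2 and Dbp held none of the 4 sets of letters, and neither did the second Per1 window. Both Per1 windows, from 69098699 and from 69099902, lay downstream of the annotated start of the gene at 69095217. The stretches are shown 5′ to 3′ on the gene's strand with the motifs in capitals.
Ciart, chr3:95882247-95882364, minus strand: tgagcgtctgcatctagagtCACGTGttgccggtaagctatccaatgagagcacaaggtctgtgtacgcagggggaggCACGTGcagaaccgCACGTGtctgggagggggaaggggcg
Per1, chr11:69098763-69098808, plus strand: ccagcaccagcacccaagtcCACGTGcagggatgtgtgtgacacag
Cry1, chr10:85185089-85185153, minus strand: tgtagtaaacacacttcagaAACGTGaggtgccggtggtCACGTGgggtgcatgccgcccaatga
Nr1d1, chr11:98775380-98775425, minus strand: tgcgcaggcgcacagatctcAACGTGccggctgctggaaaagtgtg
Per3, chr4:151044796-151044890, minus strand: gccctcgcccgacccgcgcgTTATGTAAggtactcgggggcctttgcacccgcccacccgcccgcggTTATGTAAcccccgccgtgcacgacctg
Arntl, chr7:113207530-113207559, plus strand: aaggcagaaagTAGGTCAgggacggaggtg
A match is a run of letters and does not show that a factor binds there. The E-prime box is read from the other strand in the Cry1 and Nr1d1 lines, where it appears as AACGTG.

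Arntl, the partner that every activating pair needs (ENSMUSG00000055116, GRCm38 chromosome 7, 113207465 to 113314126, plus strand), had the widest range of the 9 members with reads in every library. Its normalized counts were 37.6, 9.02 and 48.8 in PBS day 4 replicates 4, 5 and 6 and 6.10, 173 and 11.7 in tumour day 4 replicates 1, 2 and 3. At day 21 they were 15.7, 258 and 99.0 in PBS replicates 10a, 11a and 12b and 25.0, 33.3 and 31.3 in tumour replicates 7, 8b and 9a. PBS day 21 replicate 11a was 42.3 times the lowest library, tumour day 4 replicate 1. The 4 highest libraries came from 3 of the 4 groups, and the tumour mice of day 21 lay between the extremes of the PBS mice of the same day. The group means in falling order were 124 ± 123 in PBS day 21, 63.6 ± 94.8 in tumour day 4, 31.8 ± 20.5 in PBS day 4 and 29.9 ± 4.29 in tumour day 21 (SD, n = 3 each). Every pair of neighbours in that order overlapped.

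Clock, which encodes the usual partner of ARNTL (chromosome 5, 76209868 to 76304792, minus strand), varied less. It had 402, 230 and 457 in PBS day 4 replicates 4, 5 and 6, and 227, 807 and 378 in tumour day 4 replicates 1, 2 and 3. At day 21 it had 265, 671 and 667 in PBS replicates 10a, 11a and 12b and 330, 412 and 390 in tumour replicates 7, 8b and 9a. The same 3 libraries that led for Arntl led for Clock, namely tumour day 4 replicate 2 and PBS day 21 replicates 11a and 12b. Npas2, which can take the place of CLOCK (chromosome 1, 39193731 to 39363236, plus strand), was near the limit of detection. It had 49 recovered reads in PBS day 21 replicate 11a, 13 in PBS day 4 replicate 6, 9 in PBS day 21 replicate 12b and 0 to 5 in the other 9 libraries. Its mean of 5.53 normalized counts was under the minimum of 10 set for the tests, so 9 of the 10 members were tested.

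Nr1d1, the receptor that silences Arntl (chromosome 11, 98767932 to 98775333, minus strand), ran its own course. It had 286, 574 and 2116 in PBS day 4 replicates 4, 5 and 6 and 343, 825 and 970 in tumour day 4 replicates 1, 2 and 3. At day 21 it had 1183, 1560 and 2285 in PBS replicates 10a, 11a and 12b and 661, 948 and 326 in tumour replicates 7, 8b and 9a. All 3 PBS mice of day 21 were above all 3 tumour mice of that day. The exons of Nr1d1 share 263 bases with those of Thra on the opposite strand, and those of Dbp share 539 bases with Sphk2. The strand setting of the counting is not given in the sources used here, so reads in those stretches cannot be assigned to one gene.

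Among the repressors, Per2 (chromosome 1, 91415982 to 91459324, minus strand) had 1115, 1231 and 382 in PBS day 4 replicates 4, 5 and 6 and 1029, 426 and 986 in tumour day 4 replicates 1, 2 and 3. At day 21 it had 1064, 199 and 550 in PBS replicates 10a, 11a and 12b and 978, 865 and 936 in tumour replicates 7, 8b and 9a. The 4 libraries lowest in Per2 were the 4 highest in Arntl. Per3, a relative of Per2 that is less needed for rhythms (chromosome 4, 151003652 to 151044665, minus strand), ran from 144 in PBS day 21 replicate 11a to 1178 in PBS day 4 replicate 4. Ciart, which encodes a repressor of the ARNTL pair (chromosome 3, 95878503 to 95882251, minus strand), ran from 49.1 in PBS day 21 replicate 11a to 850 in PBS day 4 replicate 5, a 17.3-fold range. It had 665, 850 and 165 in PBS day 4 replicates 4, 5 and 6 and 522, 74.9 and 736 in tumour day 4 replicates 1, 2 and 3. At day 21 it had 486, 49.1 and 92.6 in PBS replicates 10a, 11a and 12b and 388, 223 and 324 in tumour replicates 7, 8b and 9a. Replicate 2 was thus far below the other tumour mice of day 4, while the tumour mice of day 21 lay close together.

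Per1, the period gene that answers most quickly to hormones and stress signals (chromosome 11, 69095217 to 69109960, plus strand), had the smallest SD within groups of the 9 tested members. Its counts were 899, 1307 and 582 in PBS day 4 replicates 4, 5 and 6 and 778, 568 and 953 in tumour day 4 replicates 1, 2 and 3. At day 21 they were 798, 729 and 654 in PBS replicates 10a, 11a and 12b and 1094, 1084 and 884 in tumour replicates 7, 8b and 9a. All 3 tumour mice of day 21 were above all 3 PBS mice of that day, though not above PBS day 4 replicate 5. Cry1, a cryptochrome (chromosome 10, 85131700 to 85185064, minus strand), ran from 91.4 in PBS day 4 replicate 6 to 307 in PBS day 4 replicate 4. It thus had both its extremes in 1 group.

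Dbp, a transcription factor that carries the rhythm to D-box genes (chromosome 7, 45705088 to 45710203, plus strand), had 1528, 3385 and 2392 in PBS day 4 replicates 4, 5 and 6. It had 2416, 625 and 2541 in tumour day 4 replicates 1, 2 and 3, and 3163, 511 and 1617 in PBS day 21 replicates 10a, 11a and 12b. In the tumour mice of day 21 it had 1612, 1523 and 1254, in the order 7, 8b and 9a. The lowest libraries, PBS day 21 replicate 11a and tumour day 4 replicate 2, were the highest in Arntl. Per kilobase of annotated exon, the mean level over the 12 libraries fell from Dbp (628 normalized counts) through Nr1d1 (327), Ciart (169), Per1 (153), Per2 (139), Per3 (74.6), Cry1 (61.4) and Clock (31.8) to Arntl (8.29) and Npas2 (1.15).

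**Figure D1:**
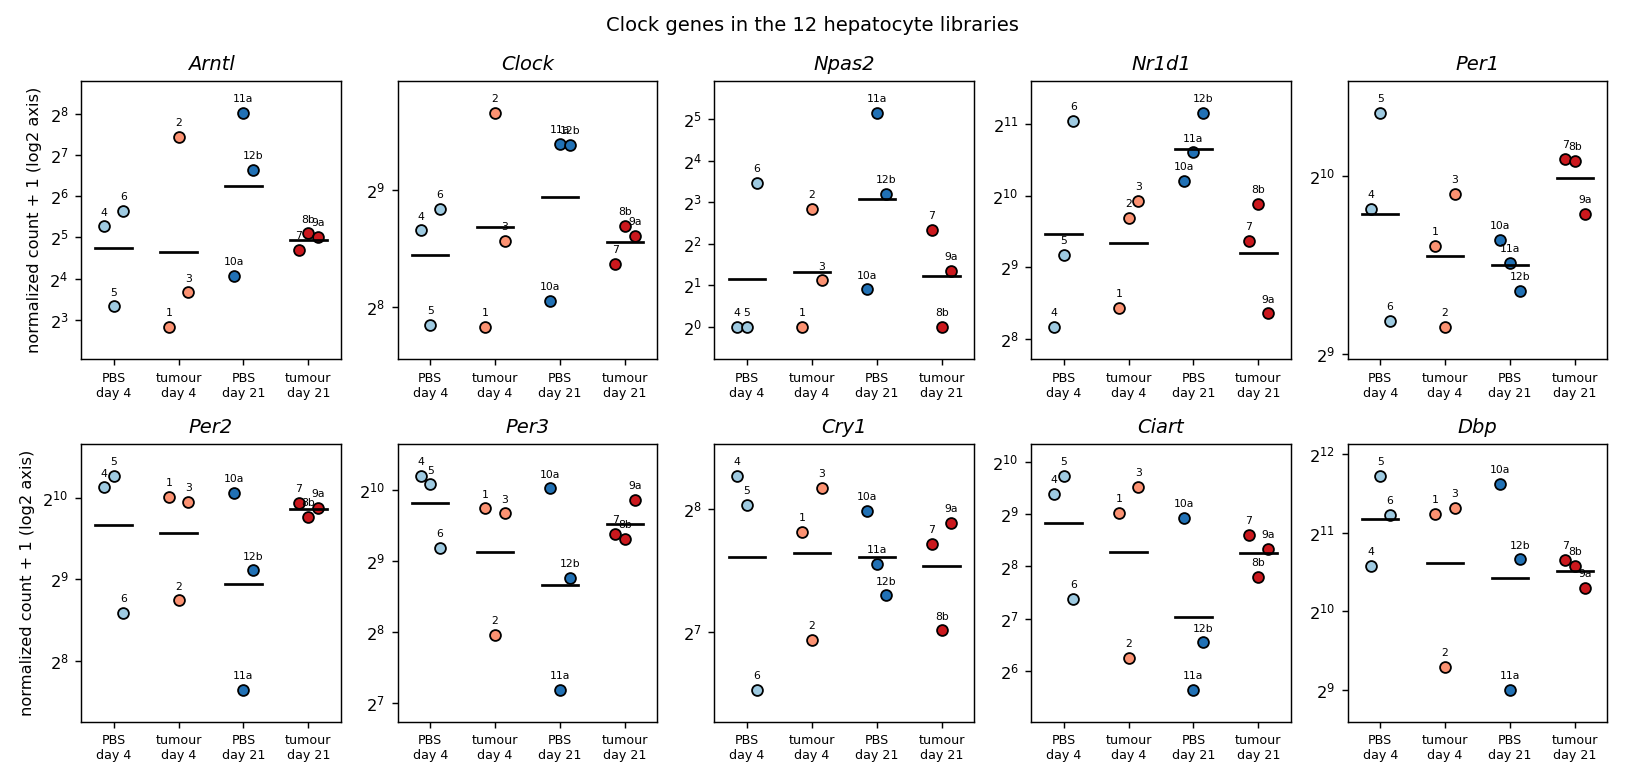
Normalized count plus 1 on a log2 axis for each of the 10 clock genes, 1 point per library labelled by its replicate, with a bar at the mean of the log2 values of each group of 3 mice. Replicates 2, 11a and 12b stand high for Arntl and low for Ciart, while replicates 7, 8b and 9a of tumour day 21 lie close together for most genes.

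The spread between mice of the same group was wide for most clock genes. The SD within groups, pooled over the 4 groups with 8 residual degrees of freedom, was 1.71 for Arntl, 1.39 for Ciart, 0.95 for Nr1d1, 0.93 for Per3 and for Dbp, and 0.85 for Per2, all on the log2(value + 1) scale. The median over the 10005 genes with a mean of at least 50 was 0.24. Among those genes the SD of Arntl lay above 99.9% of the others, that of Ciart above 99.6%, Nr1d1 97.5%, Per3 97.2%, Dbp 97.2% and Per2 96.3%. Clock had 0.66 (93%), Cry1 0.64 (92.5%) and Per1 0.36 (78.5%). These percentiles are a description of the libraries, and no test was made of them.

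The groups themselves differed in how far their mice lay apart. The median SD of the 9 tested members was 1.22 in PBS day 21, 0.94 in PBS day 4 and 0.92 in tumour day 4, where the medians over 12631 genes were 0.18, 0.30 and 0.25. In tumour day 21 the members had a median of 0.21, beside 0.24 for all genes. Arntl spanned 25.0 to 33.3 there, a 1.33-fold range, against 16.4-fold in PBS day 21 and 28.4-fold in tumour day 4. Per2 spanned a 1.13-fold range in tumour day 21 and 5.34-fold in PBS day 21. In 3 of the 9 members the mice of tumour day 21 lay farther apart than those of PBS day 21: Nr1d1 (2.91-fold against 1.93-fold), Cry1 (1.84-fold against 1.61-fold) and Per1 (1.24-fold against 1.22-fold). With 3 mice a group, the difference in spread was not tested.

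**Figure D2:**
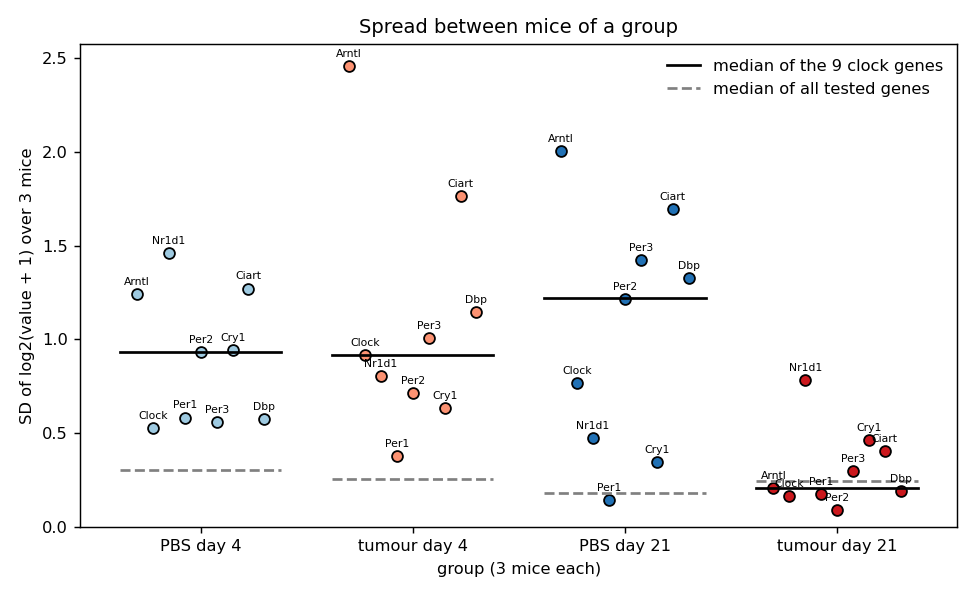
SD of log2(value + 1) over the 3 mice of each group for each of the 9 tested clock genes, with a solid line at their median and a dashed line at the median of all 12631 tested genes. The solid line lies above the dashed line in 3 groups, at 0.92 to 1.22, and next to it in tumour day 21, at 0.21.

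Across the 12 libraries 6 of the 9 other members were correlated with Arntl at an adjusted p under 0.05 in Pearson's r, 2 of them positively and 4 negatively. The share of all genes that would pass in the same way was not computed, so the count cannot be set against it. Genes outside the clock lists reached r = 0.973 (Asap2) and -0.94 (Srm). Clock had r = 0.943 with Arntl (permutation p = 2e-05, adjusted over 9 genes p = 0.00018) and rho = 0.965 (adjusted p = 9e-05). Ciart had r = -0.918 (permutation p = 4e-05, adjusted p = 0.00018) and rho = -0.86 (adjusted p = 0.00373). Within groups, as deviations from the group means, r was 0.963 for Clock (permutation p = 0.00064, adjusted p = 0.00288) and -0.918 for Ciart (permutation p = 0.00538, adjusted p = 0.0161). The 2 libraries farthest from the median of Arntl were PBS day 21 replicate 11a and tumour day 4 replicate 2. Without them r was 0.922 for Clock (permutation adjusted p = 0.00297) and -0.815 for Ciart (0.0161), so for this pair of genes the relation also passed without those libraries.

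Dbp, Per3 and Per2 also ran against Arntl. Their r was -0.86, -0.857 and -0.853 (permutation p = 0.00035, 0.00031 and 0.00026, adjusted p = 0.00063 for each), and their rho -0.755, -0.706 and -0.79 (adjusted p = 0.0143, 0.0195 and 0.0109). Within groups r was -0.92, -0.882 and -0.845 (permutation adjusted p = 0.0269, 0.0269 and 0.00288). Npas2 followed Arntl with r = 0.803 (permutation p = 0.00165, adjusted p = 0.00247), rho = 0.712 (adjusted p = 0.0195) and 0.761 within groups (adjusted p = 0.0376). It is counted among the members that passed, but its r rests on few reads. Its mean of 5.53 normalized counts was under the minimum of 10 set for the group tests. Without PBS day 21 replicate 11a and tumour day 4 replicate 2, r fell to -0.63, -0.625, -0.679 and 0.649 for Dbp, Per3, Per2 and Npas2 (permutation adjusted p = 0.0805 for each). For these 4 genes r kept its direction, and passing the test rests on those libraries, whose removal also narrows the range of Arntl.

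Per1 had r = -0.604 with Arntl (permutation p = 0.0393, adjusted p = 0.0505) and rho = -0.622 (adjusted p = 0.0463), and Cry1 had r = -0.535 (permutation p = 0.0739, adjusted p = 0.0831) and rho = -0.594 (adjusted p = 0.0512). Nr1d1 had r = 0.481 (permutation p = 0.113) and rho = 0.441 (permutation p = 0.154). Within groups r was -0.652, -0.591 and 0.332 (permutation adjusted p = 0.0621, 0.0991 and 0.314), and without the same 2 libraries it was -0.472, -0.54 and 0.479. None of these passed in Pearson's r. The libraries highest in Nr1d1, PBS day 21 replicate 12b and PBS day 4 replicate 6, ranked 3 and 4 in Arntl, and PBS day 4 replicate 4, lowest in Nr1d1, was the highest in Cry1 and Per3. Leaving out tumour day 21 replicate 7 moved r most for Npas2, to 0.822.

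**Figure D3:**
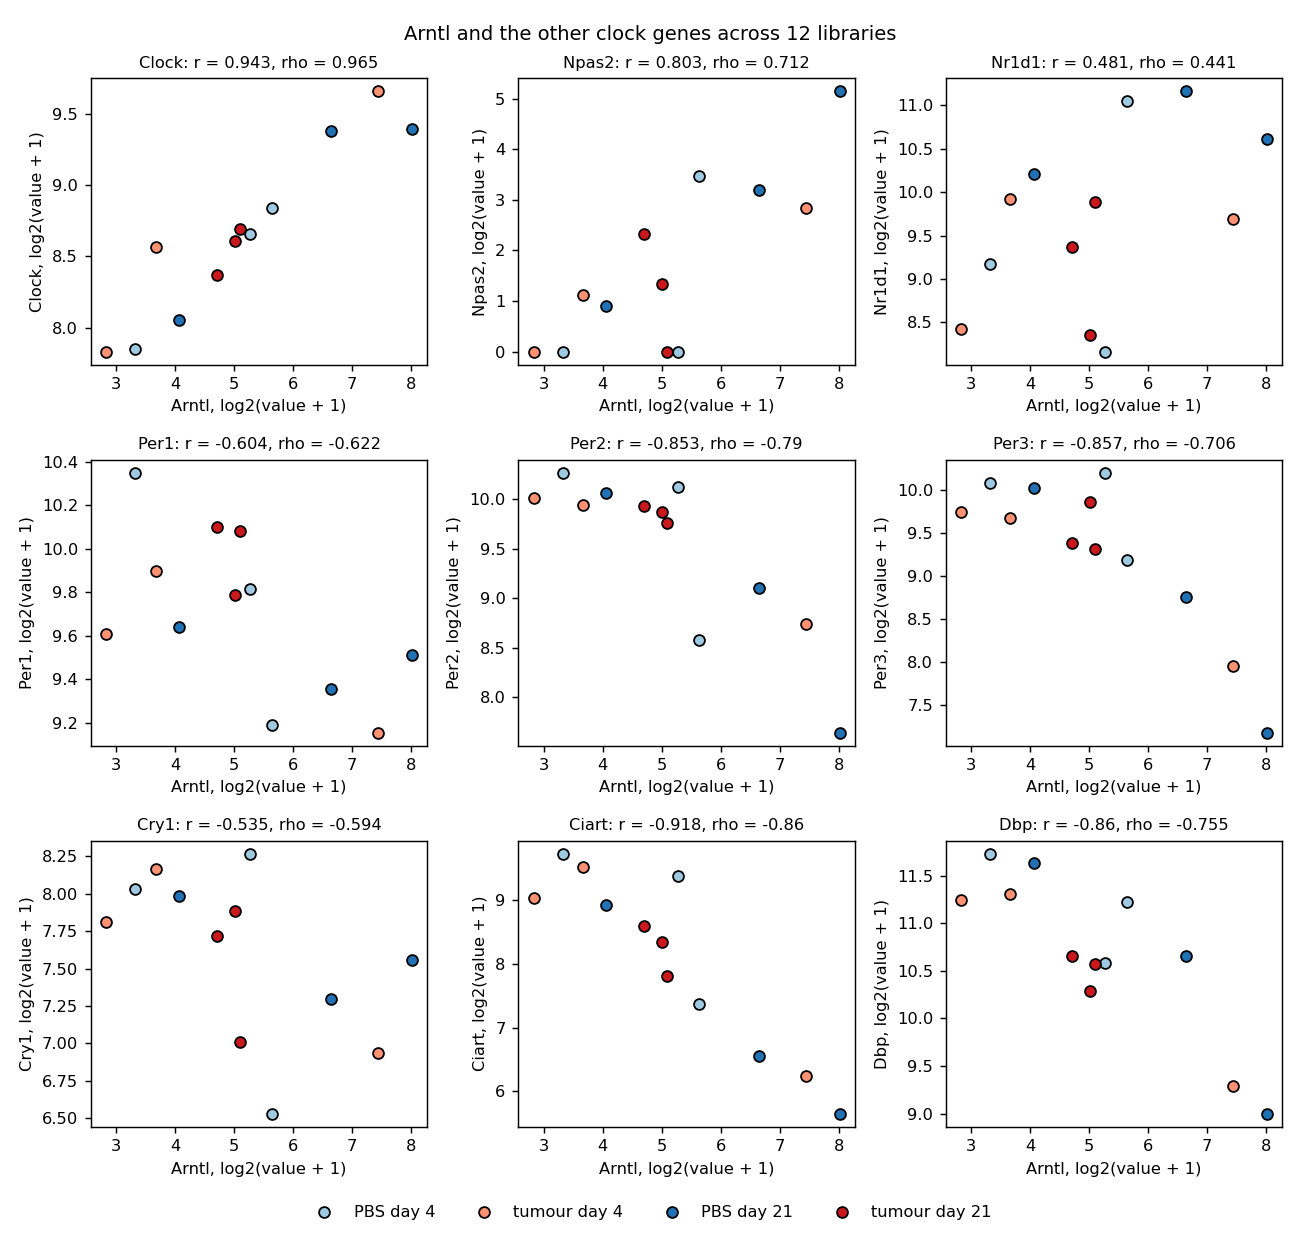
Each of the other 9 clock genes against Arntl, both as log2(value + 1), 1 point per library coloured by group, with Pearson's r and Spearman's rho over the 12 libraries. Clock rises with Arntl (r = 0.943) and Ciart falls with it (r = -0.918), with points of PBS and tumour mice mixed along the same slope.

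**Figure D4:**
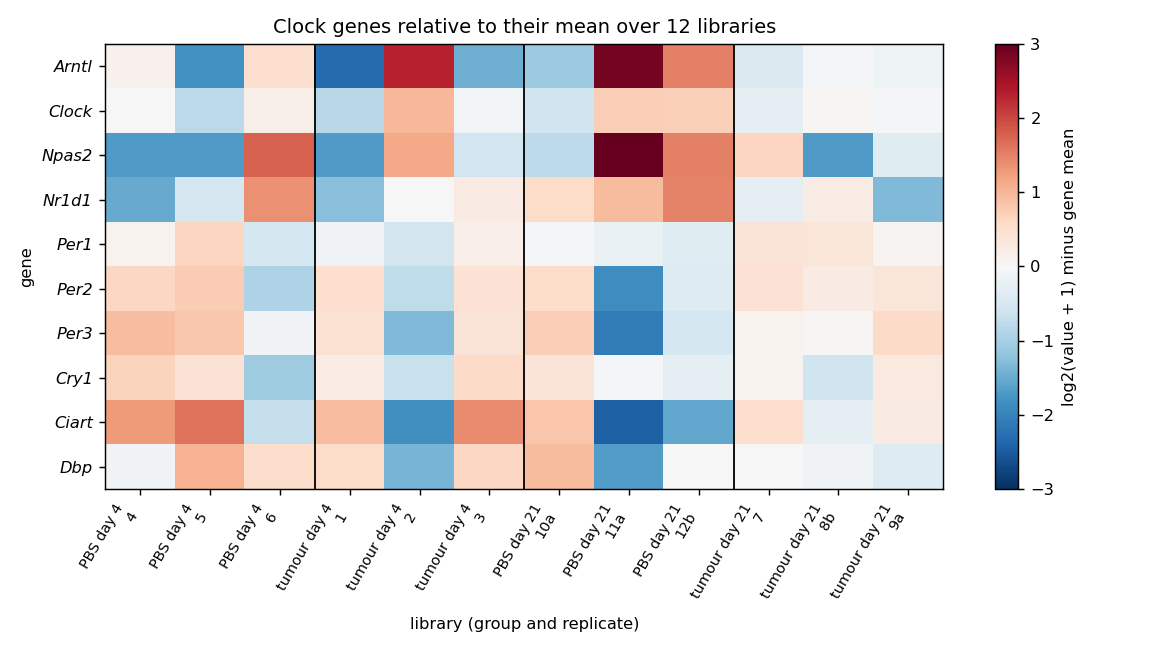
The log2(value + 1) of each clock gene minus its mean over the 12 libraries, with genes in rows by role and libraries in columns by group; the colours end at 3 in either direction. Tumour day 4 replicate 2 and PBS day 21 replicates 11a and 12b are red for Arntl, Clock and Npas2 and blue for Per2, Per3 and Ciart. PBS day 4 replicate 6 goes the same way in each of these genes, while PBS day 21 replicate 10a goes the other way.

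Tumour mice at day 4 did not differ detectably from PBS mice in any clock gene. Limma called 0 of 9 tested members, where it called 0% of all 12631 genes, and 0 members had an unadjusted p under 0.05 in limma, edgeR or DESeq2. The median log2 fold change of the members was -0.11, beside -0.03 for all genes. Arntl had -0.10 (95% interval -2.78 to 2.58), Per1 -0.23 (-0.79 to 0.33), Per3 -0.70 (-2.16 to 0.76) and Dbp -0.56 (-2.02 to 0.90), with limma adjusted p = 0.995, 0.92, 0.901 and 0.928. The groups overlapped for all 9 members, while 8.77% of all genes had no overlap (4.53% higher and 4.24% lower in tumour mice). The sign of the Arntl value turned in edgeR (0.97) and DESeq2 (0.9996). Without tumour day 4 replicate 2 Arntl had -1.497 in limma, and the values of Clock, Per2, Dbp and Ciart changed sign.

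At day 21 every tumour mouse had fewer Nr1d1 and more Per1 counts than every PBS mouse, but neither gene passed the test. Limma called 0 of 9 members (smallest adjusted p = 0.23), against 7.85% of all genes (5.42% higher and 2.44% lower), and 0 members had an unadjusted p under 0.05 in limma, edgeR or DESeq2. Nr1d1 had 1676 ± 560 normalized counts in PBS mice and 644.8 ± 311.2 in tumour mice (SD, n = 3 each; log2 fold change -1.46, 95% interval -2.95 to 0.04; limma adjusted p = 0.23). Per1 had 726.8 ± 71.9 in PBS mice and 1021 ± 118 in tumour mice (0.49, -0.07 to 1.05; adjusted p = 0.285). Separation without overlap was thus seen in 2 of the 9 members, 1 higher and 1 lower, where it was seen in 32.6% of all genes (17.2% higher and 15.4% lower), a share that 2 of 9 does not exceed.

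For the other 7 members the ranges of the 2 groups overlapped at day 21. Arntl had a log2 fold change of -1.30 (95% interval -3.98 to 1.38), Clock -0.39 (-1.41 to 0.64), Per2 0.92 (-0.41 to 2.25), Per3 0.86 (-0.60 to 2.32) and Ciart 1.21 (-0.97 to 3.39), with limma adjusted p = 0.576, 0.674, 0.407, 0.488 and 0.519. Cry1 had -0.07 (-1.05 to 0.90) and Dbp 0.08 (-1.38 to 1.54), with adjusted p = 0.94 and 0.958. The members' median was 0.08, beside 0.02 for all genes. Without PBS day 21 replicate 11a, Arntl had -0.41, and without 10a -2.39. The neutrophil markers rose in the same tumour libraries, with 14 of 14 called, and the part of those cells in the clock values was not tested. Without replicate 7, the library with most of these reads, Nr1d1 had -1.54 and Per1 0.43.

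PBS mice of day 21 were compared with PBS mice of day 4, as a measure of how far the clock genes differed without a tumour. Limma called 0 of 9 members and 0% of all genes, with 0 members at an unadjusted p under 0.05 in limma, edgeR or DESeq2. The largest values were -1.79 for Ciart (95% interval -3.97 to 0.39), 1.496 for Arntl (-1.18 to 4.18), 1.20 for Nr1d1 (-0.30 to 2.70) and -1.17 for Per3 (-2.63 to 0.29), all with limma adjusted p = 0.938. This comparison shares the PBS mice of day 21 with the one before it. The groups overlapped for all 9 members, and 9.95% of all genes had no overlap (5.44% higher and 4.51% lower at day 21).

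The tumour effects at the 2 days were also compared with each other. Limma called 0 of 9 members for the difference, against 0.689% of all genes (0.641% higher and 0.0475% lower), with 0 at an unadjusted p under 0.05 in limma, edgeR or DESeq2. Per1 had the smallest p, with a difference of 0.72 on the log2 scale (95% interval -0.07 to 1.51; adjusted p = 0.42). The intervals of Arntl (-5.00 to 2.59) and Ciart (-1.32 to 4.86) leave room for large differences in either direction. At this spread and with 3 mice a group, a tumour effect on the clock genes was not detectable, which does not show that there was none.

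**Figure D5:**
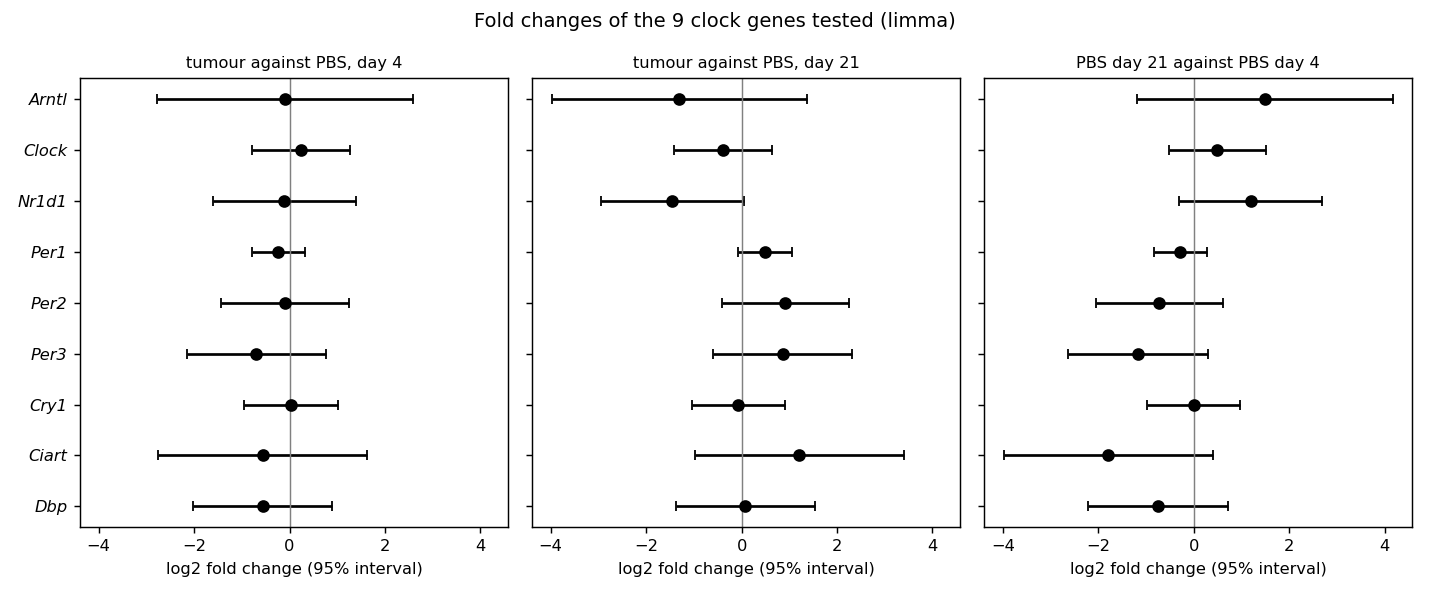
Log2 fold change with its 95% interval from limma for the 9 tested clock genes in 3 comparisons: the tumour effect at day 4, the tumour effect at day 21, and the later against the earlier PBS group. Every interval includes 0, and those of Arntl and Ciart are the widest.

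The wider clock was read from 16 further genes and 15 genes known for rhythms in liver. Over all tested genes limma gave an unadjusted p under 0.05 to 6.02% at day 4, 23% at day 21, 13.3% for the difference and 3.99% between the PBS groups. In the same order limma called 0%, 7.85%, 0.689% and 0% of the 12631 genes. EdgeR called 0, 1173, 0 and 0 of these genes, and DESeq2 1, 1778, 479 and 5. Of the further clock genes limma called 0 of 16 at day 4 and 0 of 16 between the PBS groups, each with 1 at an unadjusted p under 0.05. EdgeR and DESeq2 called 0 as well, with 1 and 1 at an unadjusted p under 0.05 at day 4 and 0 and 1 between the PBS groups. The medians were -0.15 and -0.03. At day 4 Cry2, the other cryptochrome, had the smallest p (-0.64, 95% interval -1.14 to -0.15, limma adjusted p = 0.815). All 3 tumour mice were below all 3 PBS mice, but barely, at 704.27 in tumour replicate 3 and 705.13 in PBS replicate 6. Cry2 was the 1 of 16 without overlap at day 4, where 8.77% of all genes had none. At day 21 limma, edgeR and DESeq2 called 1 of 16, and it was Timeless in each, with 2, 2 and 3 of the 16 at an unadjusted p under 0.05.

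Timeless, whose fly relative is a clock gene and which in mammals serves mainly at replication forks, had 57.5, 62.4 and 60.8 in PBS day 21 replicates 10a, 11a and 12b and 205, 140 and 150 in tumour day 21 replicates 7, 8b and 9a. The 6 libraries of day 4 had 52.3 to 72.1, so the tumour mice of day 21 were above every other mouse. The log2 fold change was 1.42 (SE 0.20; limma adjusted p = 0.00178). The value was highest in replicate 7, which had the largest share of neutrophil and precursor markers (0.762%). Kupffer cell markers (0.145%, against 0.0169% and 0.055% in 8b and 9a) and monocyte markers (0.011%, against 0.00171% and 0.0017%) were also highest there. So were those of stellate cells, sinusoidal endothelium, lymphocytes and red cell precursors. Bile duct cell markers were highest in 8b (0.0021%). In PBS mice of day 21 Kupffer cell markers held 0.0166% to 0.0253%, stellate markers 0.0138% to 0.0207% and endothelial markers 0.0167% to 0.023%. Replicate 8b was within the first range and, at 0.0136% and 0.0126%, below the others. Its monocyte share was above those PBS mice (at most 0.000104%). Tumour day 4 replicate 2 had 0.00619% red cell precursor markers, against 0.00653% in replicate 7, and 61.4 for Timeless. Limma called 4 of 4 tested monocyte markers and 1 of 8 Kupffer cell markers higher at day 21. The part of these cells in the Timeless value was not tested. Without replicate 7 the change of Timeless was 1.25 (limma adjusted p = 0.00793). Next to it in order of p at day 21 were Bhlhe40, a repressor at E-boxes (-0.69, adjusted p = 0.209), and Rora, an activator of Arntl (-0.36, adjusted p = 0.257).

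Of the 15 rhythmic liver genes limma called 0 at day 4, at day 21, for the difference and between the PBS groups. Over all genes limma called 0%, 7.85%, 0.689% and 0% in that order. Of the 15 genes 0, 2, 2 and 3 had an unadjusted p under 0.05 in limma. At day 21 that is fewer than the share over all genes (23%) would give, and between the PBS groups more (3.99%), with no test of either. EdgeR called 0 in each, with 0, 2, 2 and 3 at an unadjusted p under 0.05. DESeq2 called 0, 2, 0 and 0, with 0, 3, 2 and 6. Its calls at day 21 were Nampt and Tspan4. Nampt, the NAD salvage enzyme, had 2362, 830 and 845 in PBS day 21 replicates 10a, 11a and 12b and 3117, 3495 and 4645 in tumour day 21 replicates 7, 8b and 9a. Its log2 fold change was 1.64 (limma adjusted p = 0.0804; DESeq2 adjusted p = 0.0199), and limma called it without PBS day 4 replicate 6 or PBS day 21 replicate 10a. Tspan4, a tetraspanin, had 1.74 (limma adjusted p = 0.0508; DESeq2 adjusted p = 0.00638), and limma called it without tumour day 4 replicate 1, PBS day 4 replicates 5 or 6 or PBS day 21 replicate 10a.

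Between the PBS groups 13 of the 15 rhythmic liver genes had a negative log2 fold change, with a median of -1.01, beside -0.01 for all genes. The smallest p was that of the vasopressin receptor gene Avpr1a, which went the other way (0.98, 95% interval 0.13 to 1.84). Nampt had -1.16 and the deadenylase-related gene Noct -0.95, and all 3 had a limma adjusted p of 0.938. PBS day 21 replicate 11a was the lowest of the 12 libraries for 8 of the 15 genes and for 4 of the 10 members. PBS day 4 replicate 5 was the highest for 6 of the 15 and for 4 of the 10. Usp2, a deubiquitinase gene of this list, ran from 47.0 in PBS day 21 replicate 11a to 1837 in PBS day 4 replicate 5.

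The genes most like Arntl over the 12 libraries were sought among 9684 others with a mean of at least 50, leaving out the members and predicted genes whose symbols are Gm with a number or end in Rik. The highest Pearson correlations were those of Asap2 (0.973), Slc39a8 (0.927), Rai14 (0.91), St5 (0.909) and Abca8b (0.908). The lowest were those of Srm (-0.94), Marveld1 (-0.932), Cnpy3 (-0.927), Usp2 (-0.91) and Fam102a (-0.909). Asap2 ran from 55.95 to 320.23 normalized counts and Fam102a from 204.61 to 1599.6, with their extremes in PBS day 21 replicate 11a and in tumour day 4 replicate 1 or PBS day 4 replicate 5. For Per1 the highest were Tma7 (0.902), C2cd3 (0.896), Znrf1 (0.89), Atxn7l3 (0.881) and Fkbp5 (0.877), the last a well-known glucocorticoid target. These values describe the same 12 libraries that share groups and depth, and genes picked as the closest of many are expected to have high values.

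Genes that report on the known inputs of the liver clock were read beside the members. Limma called 0 of 8 glucocorticoid targets, 0 of 8 feeding genes and 0 of 10 immediate-early genes at day 4 and between the PBS groups. The counts at an unadjusted p under 0.05 were 0, 1 and 2 at day 4 and 4, 2 and 2 between the PBS groups, where the shares over all genes were 6.02% and 3.99%. At day 21 limma called 2 of 8 glucocorticoid targets higher and 1 lower. It called 1 of 8 feeding genes lower, and 1 of 10 immediate-early genes higher and 1 lower. Over all genes it called 5.42% higher and 2.44% lower. Limma gave an unadjusted p under 0.05 to 3, 2 and 4 genes of these lists, beside 23% of all genes. Higher were the metallothionein genes Mt2 (4.16) and Mt1 (2.396) and the immediate-early gene Ier3 (2.11). Lower were the phosphatase Dusp1 (-1.004), the malic enzyme Me1 (-1.31) and the stress factor Atf3 (-2.34). Of the 10 immediate-early genes 8 had a negative log2 fold change at day 21, and the median of the list was -0.48. At day 4 already 9 of the 10 were negative, with a median of -0.71. Between the PBS groups, which share the PBS mice of day 21, all 10 were positive, with a median of 0.91. Of all genes 51.9% were positive at day 21, 45.4% at day 4 and 48.1% between the PBS groups. Mt2 was called without each of the 12 libraries (largest adjusted p = 0.00504). Mt2 also had -2.91 between the PBS groups, which share the PBS mice of day 21 (adjusted p = 0.694). The other 5 calls were each lost without PBS day 21 replicate 11a (adjusted p = 0.0575 to 0.154) and without 12b (0.0752 to 0.106). Among them some were also lost when replicate 7, 8b, 9a or 10a of day 21 was left out, or replicate 1, 2, 3, 4 or 5 of day 4.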

How the data were processed

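The authors deposited 1 table of normalized counts, a signal of gene counts divided by 1 size factor per library, with no length correction. Per the submitters' processing notes, cutadapt, STAR 2.4.2a, HTSeq and DESeq2 were used with GRCm38, and the strand setting is not given in the sources used here. Each library's values were multiples of 1 step, and 100% came out within 0.1 of a whole read. Depth ran from 9375095 to 21809166 reads. P-values of the fits set a difference between groups against the spread between mice, and those of the correlations come from permuting the libraries.

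Members and lists were chosen with earlier results of these data known. Genes with a mean of at least 10 (12631) were tested with limma 3.58.1 (R 4.3.3; lmFit, eBayes with trend and robust) on log2(value + 1), with 1 mean per group over all 12 libraries and Benjamini-Hochberg adjustment over all tested genes. An adjusted p under 0.05 was a call. A fold change on this scale understates the change of low genes. EdgeR 4.0.16 and DESeq2 1.42.0 were run on the recovered reads as alternatives. The limma and edgeR code was tested on simulated reads for tumour against PBS at day 21, with the same dispersion for all genes. That test does not bear on genes with a spread as wide as that of most clock genes. Correlations with Arntl used 100000 permutations, within groups for the deviations. Named genes were all members, then up to 3 per further list in order of p, and the 5 genes most like Arntl or Per1. Positions and exon lengths are from GENCODE M21. Some genes of the further lists are not reported here.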

Additional observations from a re-analysis of the deposited data

Results flagged for a closer look

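The difference between the tumour effect on Timeless at day 21 and at day 4 was 1.41 on the log2 scale (SE 0.29; limma adjusted p = 0.0488), with all 3 tumour mice of day 21 above every other mouse. It stands here because the 2 effects differed by the test of the difference itself. The call was lost without each of the 12 libraries in turn (1.24 to 1.54, adjusted p = 0.0523 to 0.145), and edgeR did not make it (adjusted p = 0.12), while DESeq2 did (adjusted p = 0.00265). The markers of neutrophils, their precursors and monocytes were higher in the same 3 libraries, and their part in the value was not tested.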

How the results depend on the processing

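The count of clock genes called stayed at 0 in all 4 comparisons under each alternative run, among them edgeR, DESeq2, the 12 leave-outs, and the fit with no filter, which also tested Npas2. The count of members correlated with Arntl stayed at 6 within groups and without tumour day 21 replicate 7, and fell to 2, Clock and Ciart, without the 2 libraries farthest from its median, an alternative chosen after seeing the data. The count over all genes moved more: at day 21 it was 992, but 326, 377, 492 and 608 without day 21 replicates 7, 12b, 11a and 10a, 620 with only the groups compared, 584 at a mean of at least 50 and 1778 in DESeq2. For the difference it was 87, with 0 in edgeR, 479 in DESeq2 and 0 to 173 over the leave-outs. Where limma called 0 genes, DESeq2 called 1 at day 4 and 5 between the PBS groups, and limma without PBS day 4 replicate 6 called 3 and 15.

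Signs were not stable for small values. For tumour against PBS at day 4, Arntl (-0.10) had 0.0134 with a pseudocount of 5, 0.975 in edgeR and 0.9996 in DESeq2, and Cry1 (0.03) had -0.0134 in edgeR and -0.056 in DESeq2. At day 21 Dbp (0.08) had -0.25 in edgeR and -0.26 in DESeq2. For the difference Cry1 (-0.10) had 0.0121 in DESeq2. Between the PBS groups Cry1 (0.002) had -0.00207 with a pseudocount of 5, -0.00157 with TMM, -0.0839 in edgeR and -0.14 in DESeq2. The cause was not tested.

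Leaving out 1 library in turn gave ranges at day 4 of -1.50 to 0.81 for Arntl, -0.25 to 0.66 for Clock, -0.53 to 0.0523 for Per1, -0.63 to 0.32 for Per2, -0.51 to 0.38 for Cry1, -0.76 to 0.68 for Nr1d1, -0.91 to 0.10 for Dbp and -1.29 to 0.45 for Ciart. At day 21 they were -0.25 to 0.19 for Cry1 and -0.64 to 0.68 for Dbp. For the difference they were -2.29 to 0.19 for Arntl, -0.45 to 0.44 for Cry1 and -0.0736 to 1.24 for Dbp. Between the PBS groups they were -0.58 to 0.0022 for Per1 and -0.54 to 0.33 for Cry1. Depth limits Npas2, at 0 to 49 reads a library. No paired analysis was possible because no replicate number is shared between groups.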
